A study of Rattus norvegicus with 6 samples.

Results

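The EGF receptor family comprises 4 receptor tyrosine kinases, Egfr, Erbb2, Erbb3 and Erbb4, and was followed here with 6 of its ligands, Egf, Tgfa, Hbegf, Areg, Ereg and Btc, in kidney RNA of cystic and normal rats. The members were the probe sets whose annotation named 1 of these 10 genes and no other, which gave 13 of the 31099 probe sets on the array, for 10 of the 14217 genes named this way. Egfr had 3 of them, Tgfa had 2 and every other gene had 1. The samples were 3 of kidney tissue from heterozygous Cy/+ and 3 from wild-type +/+ male Han:SPRD rats, 1 array per sample. Cy/+ rats carry 1 mutant allele of Anks6 and develop slowly progressing polycystic kidneys, and the labels give no treatment for either genotype. The sample labels give an age of 10 weeks for both genotypes, whereas the methods of the study state a younger age for the array experiment. No source used here ties each sample to its own rat. The p-values set the difference between genotypes against the scatter of these samples within each genotype, and that scatter may be technical.

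All ligands of the family are made as membrane-anchored precursors, and proteases of the ADAM family release them from the cell surface. A bound ligand joins receptors into pairs that phosphorylate each other and switch on the Ras and ERK kinase cascade. ErbB2 has no known ligand and ErbB3 has little kinase activity, so both signal mainly as partners of other receptors. In the normal kidney, EGF is produced mainly by the thick ascending limb and the distal convoluted tubule and appears in the urine, and EGF receptor signaling drives proliferation of tubular cells after injury.

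The kidneys of the 2 genotypes differed across the whole array. Pairs of Cy/+ arrays correlated at 0.982 to 0.990 and pairs of +/+ arrays at 0.997 (Pearson r of log2 signals over the whole array, where probe sets are no independent replicates), against 0.907 to 0.940 between genotypes. With limma and Benjamini-Hochberg adjustment at a threshold of 0.05, 66.7% of the 10645 genes tested passed, 37.4% higher and 29.3% lower in Cy/+ kidneys. The probe sets of the 18 hybridization controls were brighter in Cy/+ by a median of 1.83-fold and those of the 24 poly-A controls by 3.82-fold. For beta-actin, the 3' probe set over the 5' probe set ranged from 3.05 to 3.53 on Cy/+ arrays and from 1.5 to 1.52 on +/+ arrays. The part of these technical differences in the results below was not tested.

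Of the 10 genes, 7 were bright enough to be tested, that is, their mean log2 signal over the 6 arrays reached the 40th percentile of all probe sets, a linear signal of 77.8. Among these 7, Hbegf, Egfr and Erbb2 were higher and Egf, Btc and Erbb3 were lower in Cy/+ kidneys, while Tgfa did not pass. Areg, Ereg and Erbb4 stayed below the threshold for testing. The count of 6 in 7 stands beside 66.7% of all genes tested and 67.1% of all 18625 probe sets tested, and the arrays of the genotypes did not overlap for these 6 genes, as was the case for 74.6% of all genes. The family thus holds changes in opposite directions among both ligands and receptors. By size, 2.85% of the tested genes had a larger fall than Egf, 5.69% than Erbb3 and 21.1% than Btc, and 8.28% had a larger rise than Erbb2, 20.3% than Egfr and 22.4% than Hbegf.

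**Figure D1:**
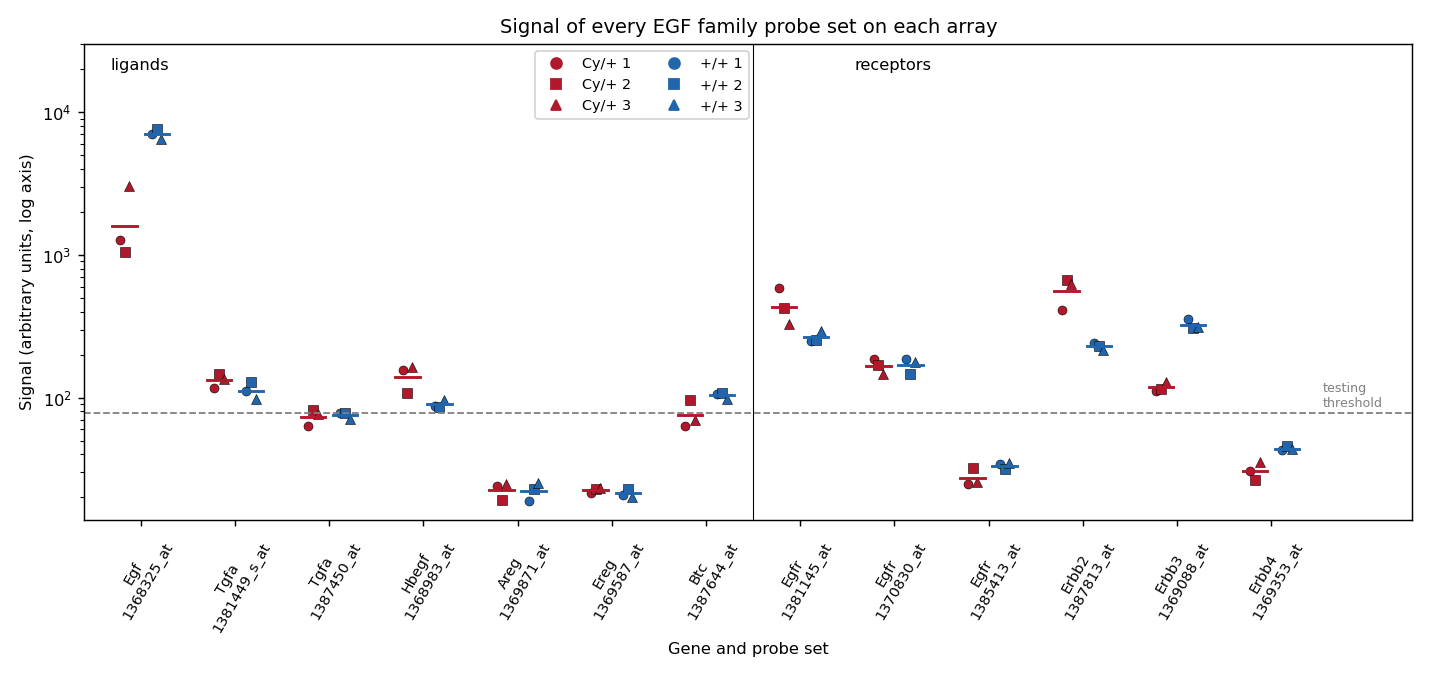
Signal of every EGF family probe set on each array (log axis, arbitrary units), with Cy/+ arrays in red left of +/+ arrays in blue, a marker shape per replicate, a line at the mean of the log2 signals of each genotype and the testing threshold of 77.8 dashed. Egf lies between 1054 and 3044 on the Cy/+ arrays, below all +/+ arrays, and signals of different probe sets are not comparable with each other.

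Egf, the ligand that gives the family its name, had the largest change of the 10 genes. Its signal was 1280, 1054 and 3044 in Cy/+ kidneys, against 7019, 7562 and 6519 in +/+ kidneys. All Cy/+ arrays lay below all +/+ arrays, and the third Cy/+ array was the highest of its group. Egf averaged 1793 ± 1090 in Cy/+ kidneys and 7033 ± 522 in +/+ kidneys (SD, n = 3 each). The log2 fold change was -2.13 (SE, the standard error, 0.36, limma adjusted p = 0.00165), which is 4.38-fold lower. The spread among Cy/+ arrays was wide, with an SD of 0.82 on the log2 scale against 0.11 among +/+ arrays.

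The Egf promoter is shown because this gene changed most. Those of Egfr and Erbb2 are shown because these receptors moved the other way, Egfr by its brightest probe set only. The sequences are RefSeq windows of assembly GRCr8, from 250 bases before to 50 bases after the start of the gene, written 5' to 3' on the strand of the gene. Egf lies at chr2:220976248-220976547 on the minus strand, Egfr at chr14:95378376-95378675 and Erbb2 at chr10:83907351-83907650, both on the plus strand. Capitals mark, on either strand, the TATA box letters TATAAA and the related TTTAAA, the GC box core GGGCGG and the CCAAT box letters.
Egf: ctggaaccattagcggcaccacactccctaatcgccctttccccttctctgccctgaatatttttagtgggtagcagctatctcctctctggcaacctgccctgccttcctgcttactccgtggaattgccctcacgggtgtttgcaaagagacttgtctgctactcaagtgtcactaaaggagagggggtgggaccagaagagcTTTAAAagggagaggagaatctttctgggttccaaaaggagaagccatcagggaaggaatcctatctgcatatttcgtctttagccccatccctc
Egfr: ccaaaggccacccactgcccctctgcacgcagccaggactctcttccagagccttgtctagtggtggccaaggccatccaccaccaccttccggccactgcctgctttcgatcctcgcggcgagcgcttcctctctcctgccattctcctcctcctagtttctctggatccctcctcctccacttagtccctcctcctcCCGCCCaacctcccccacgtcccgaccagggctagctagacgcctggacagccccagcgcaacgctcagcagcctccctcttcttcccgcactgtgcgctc
Erbb2: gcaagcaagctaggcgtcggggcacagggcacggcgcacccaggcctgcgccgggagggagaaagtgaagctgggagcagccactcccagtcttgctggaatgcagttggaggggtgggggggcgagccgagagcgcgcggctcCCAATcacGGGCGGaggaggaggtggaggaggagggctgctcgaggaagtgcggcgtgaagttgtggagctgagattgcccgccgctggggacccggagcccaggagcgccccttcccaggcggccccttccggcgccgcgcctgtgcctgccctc

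Promoter windows were found for 8 of the 10 members, and Ereg and Erbb3 had no entry. GGGCGG, the core letters of a GC box, was present in 6 of the 8, Egfr and Erbb2 among them but not Egf, and in 33.1% of all 33469 promoter windows. The Egf window held TTTAAA, whose first base lies 45 bases before the start, as did 13.6% of all windows, while TATAAA was found only in that of Areg among the 8, and in 14.2% of all. CCAAT was present in Erbb2 and Hbegf and in 37.5% of all. TGACGTCA, the full cyclic AMP response element, was found in Areg alone of the 8 and in 1.83% of all, TGANTCA, an AP-1 site, in none of the 8 and in 7.33% of all. CACGTG was in none and in 6.42% of all, and ACGTG, which overlaps it, in Egfr and in 19.3% of all. These matches are descriptions of the letters only.

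Hbegf, whose product is the heparin-binding ligand of EGFR and ErbB4, was the ligand that rose. Its signal was 157.1, 107.8 and 163.5 in Cy/+ kidneys, against 87.03, 86.04 and 95.78 in +/+ kidneys. The groups did not overlap, and the second Cy/+ array lay closest to the +/+ arrays. The log2 fold change was 0.65 (SE 0.17, limma adjusted p = 0.0116), or 1.57-fold.

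Btc, the gene of betacellulin, fell. It had signals of 63.78, 95.66 and 69.79 in Cy/+ kidneys, against 105.4, 108.1 and 98.53 in +/+ kidneys. The second Cy/+ array nearly reached the lowest +/+ array, and the Cy/+ arrays averaged less than the testing threshold on the log2 scale. The difference of -0.47 on that scale (SE 0.16, limma adjusted p = 0.0339) no longer passed when any 1 array other than the second Cy/+ array was left out (adjusted p from 0.0656 to 0.0986).

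Tgfa, which encodes transforming growth factor alpha, the EGFR ligand made by many epithelia, did not pass. Its brighter probe set had signals of 116.7, 145.7 and 135.8 in Cy/+ kidneys, against 111.0, 127.7 and 97.20 in +/+ kidneys. The genotypes overlapped, with a log2 fold change of 0.25 (95% interval -0.076 to 0.57, limma adjusted p = 0.146). Its dimmer probe set was not tested, with means of 74.0 ± 9.62 in Cy/+ and 75.5 ± 4.41 in +/+ kidneys (SD, n = 3 each).

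Areg, the gene of amphiregulin, and Ereg, that of epiregulin, were near the bottom of the signal range, whose lowest value was 10.65. Areg had signals of 23.97, 19.03 and 24.82 in Cy/+ kidneys, against 18.98, 23.01 and 25.20 in +/+ kidneys. Ereg had 21.55, 22.78 and 23.16 in Cy/+ kidneys, against 20.92, 22.84 and 20.27 in +/+ kidneys. The genotypes overlapped for both genes, and without a filter on dim probe sets neither passed (adjusted p = 0.939 for Areg and 0.387 for Ereg, from limma). No detection limit was set for these dim probe sets. Btc, Areg and Ereg lie next to each other on chromosome 14, followed by Epgn, for which no probe set carried that symbol alone.

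Among the receptors, Erbb2 rose and Erbb3 fell. Erbb2, the partner receptor without a ligand of its own, had signals of 411.2, 666.2 and 622.1 in Cy/+ kidneys, against 242.7, 228.4 and 215.9 in +/+ kidneys. Every Cy/+ array lay above every +/+ array, the first Cy/+ array being the lowest of its group. The log2 fold change was 1.28 (SE 0.18, limma adjusted p = 0.000764), or 2.42-fold.

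Erbb3, the neuregulin receptor with a nearly inactive kinase, had signals of 111.8, 115.4 and 128.0 in Cy/+ kidneys, against 356.6, 305.6 and 313.6 in +/+ kidneys. The Cy/+ arrays lay close together and far below the +/+ arrays. The log2 fold change was -1.46 (SE 0.10, limma adjusted p = 4.94e-05), which is 2.75-fold lower. In contrast to Egf, the spread of Erbb3 was similar in the genotypes, with an SD of 0.10 on the log2 scale in Cy/+ and 0.12 in +/+ kidneys. Of the 7 tested members, 5 had a larger SD on the log2 scale among Cy/+ than among +/+ arrays, beside 78.2% of all genes tested.

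Egfr, the receptor that EGF binds, rose by its brightest probe set only. The brightest of its 3 probe sets had signals of 588.8, 427.2 and 325.7 in Cy/+ kidneys, against 248.3, 251.6 and 294.5 in +/+ kidneys. The groups did not overlap, but the third Cy/+ array lay near the highest +/+ array. The log2 fold change was 0.72 (SE 0.21, limma adjusted p = 0.0185), or 1.65-fold, and it did not pass without +/+ replicate 1 or +/+ replicate 2 (adjusted p = 0.0631 and 0.0602). The second brightest had signals of 185.8, 169.5 and 145.8 in Cy/+ kidneys, against 186.5, 146.4 and 178.5 in +/+ kidneys. These overlapped, with a log2 fold change of -0.029 (95% interval -0.35 to 0.30, limma adjusted p = 0.863). The dimmest was not tested and overlapped, with means of 27.6 ± 4.05 in Cy/+ and 33.4 ± 1.72 in +/+ kidneys (SD, n = 3 each).

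The probe sets of Egfr therefore disagreed. On each array, the log2 signal of the brightest exceeded that of the second brightest by 1.66, 1.33 and 1.16 in Cy/+ kidneys, against 0.41, 0.78 and 0.72 in +/+ kidneys, a shift of 0.75. This difference was chosen after the values were seen and is given as a description. With the mean of the 3 probe sets the log2 fold change of Egfr was 0.13 and did not pass (limma adjusted p = 0.366).

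Erbb4, which binds neuregulins as well as HB-EGF and betacellulin, was dim in both genotypes. Its signal was 30.78, 26.65 and 35.53 in Cy/+ kidneys, against 42.67, 45.54 and 43.67 in +/+ kidneys. All Cy/+ arrays lay below all +/+ arrays. The gene was not tested under the filter, and without a filter, where 51.9% of all probe sets passed, its log2 difference of -0.51 passed (limma adjusted p = 0.00623).

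Set side by side, the 4 tested ligands had a median log2 fold change of -0.11 with 1 higher, 2 lower and 1 that did not pass. The 3 tested receptors had a median of 0.72 with 2 higher and 1 lower. That median is the value of the brightest probe set of Egfr. The second brightest of Egfr gave -0.029 and the mean of its probe sets gave 0.13, and neither passed. The median over all genes tested was 0.09. Ligands ranged from -2.13 to 0.65 and receptors from -1.46 to 1.28, so that the ranges overlapped. Neither class was set against the other by a test.

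**Figure D2:**
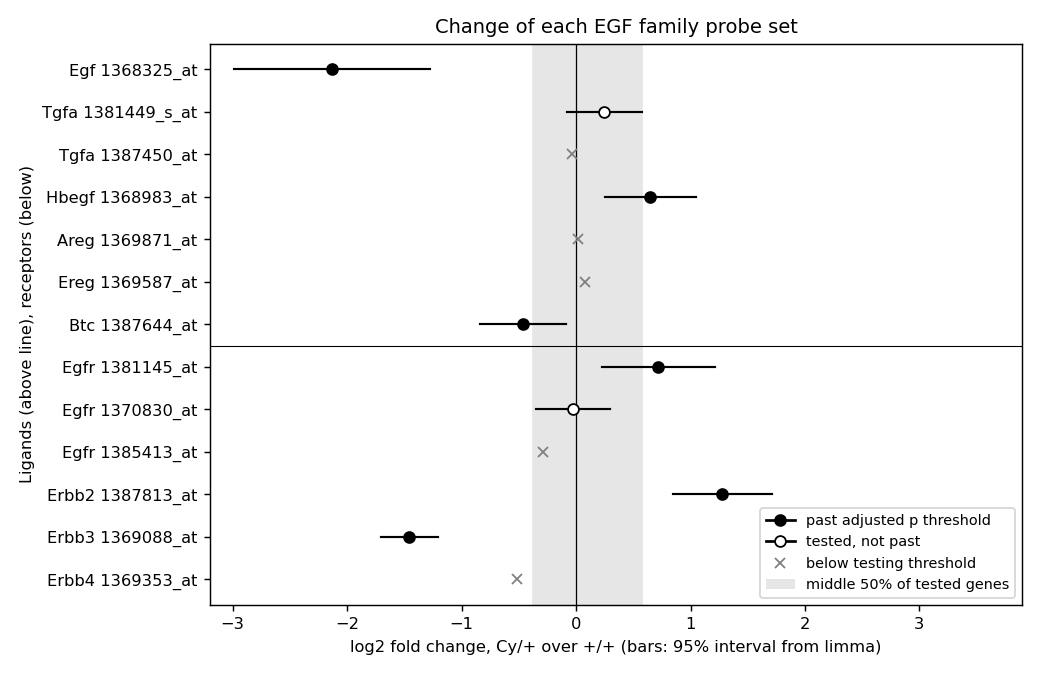
Log2 fold change, Cy/+ over +/+, of each EGF family probe set, ligands above the line and receptors below it. Filled points passed limma's adjusted p, open points were tested and did not pass, bars are 95% intervals, crosses lay below the threshold for testing and the grey band spans the middle 50% of all genes tested (-0.38 to 0.58). Egf at -2.13, Erbb3 at -1.46 and Erbb2 at 1.28 lie outside the band with their intervals.

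The arrays that stood out within the Cy/+ group differed from member to member. Among the 7 tested members, the second Cy/+ array was the lowest of its group for Egf and Hbegf and the highest for Tgfa, Btc and Erbb2. The first was the lowest for Tgfa, Btc, Erbb2 and Erbb3 and the highest for Egfr. Markers of nephron segments also differed among these arrays. All 10 tested collecting duct markers were highest on the second and lowest on the first Cy/+ array of the group, and 11 of 12 proximal tubule markers were lowest on the second. In whole kidney RNA, fewer cells of a type and less RNA per cell cannot be told apart.

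Egf was set against other genes of the segments that produce it. Of all genes tested, 37.4% were higher and 29.3% lower in Cy/+ kidneys. Of 13 tested genes taken as markers of the thick ascending limb or distal convoluted tubule, 4 rose, 3 fell and 6 did not pass. Their median log2 fold change was 0.14, while Egf fell by 2.13 on the log2 scale. The 3 higher genes of smallest adjusted p were the transcription factor gene Tfcp2l1 (log2 fold change 0.88), the prostaglandin E2 receptor gene Ptger3 (1.11) and the claudin gene Cldn19 (1.34). A dimmer probe set of Ptger3 had a log2 fold change of -0.14 and did not pass, nor did the mean of its probe sets (0.48, adjusted p = 0.0662). The 3 lower ones were Cnnm2, a gene of magnesium handling (-1.25), the calcium-binding protein gene Calb1 (-1.87) and the potassium channel gene Kcnj1 (-1.05). Kcnj1 did not pass in 8 of 17 alternative settings, and its log2 fold change ranged from -1.50 (without Cy/+ replicate 3, where it passed) to -0.65 (without Cy/+ replicate 1, adjusted p = 0.0596) when 1 array was left out.

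Among the 6 that did not pass were Umod, Slc12a1 and Slc12a3, which were named after their values were seen. Umod, which encodes uromodulin, had signals of 13290, 12630 and 19070 in Cy/+ kidneys, against 17280, 18840 and 17610 in +/+ kidneys, with overlapping groups (log2 fold change -0.28, limma adjusted p = 0.147). Slc12a1, the gene of the NKCC2 transporter, had 2958, 3529 and 4792 in Cy/+ kidneys, against 2712, 3274 and 3400 in +/+ kidneys (log2 fold change 0.24, adjusted p = 0.267). Slc12a3, the gene of the NCC transporter, had 723.1, 830.4 and 994.2 in Cy/+ kidneys, against 745.3, 673.4 and 882.2 in +/+ kidneys (log2 fold change 0.14, adjusted p = 0.414). The others of the 6 were Cldn10, Sostdc1 and Bsnd. Cldn10 had 1465, 2804 and 4679 in Cy/+ kidneys, all below the 4793, 4799 and 4888 in +/+ kidneys (log2 fold change -0.85, limma adjusted p = 0.0767). Sostdc1 (0.50) and Bsnd (-0.18) overlapped between the genotypes. Without the third Cy/+ array, Umod was lower (log2 fold change -0.47, limma adjusted p = 0.00232) and 5 markers of the list were lower, and with arrays weighted by quality Slc12a1 was higher (0.44, limma adjusted p = 0.0364).

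The difference between the log2 signal of Egf and that of each of the 13 markers was taken on every array, as a description. It was lower on all Cy/+ than on all +/+ arrays for 11 of the 13, and it overlapped for Calb1 and Cnnm2. Only 2.85% of the tested genes had a larger fall than Egf, so the mean difference would be lower against most genes. The share of all genes without overlap was not computed. The shift between the genotype means ranged from -3.48 for Cldn19 to -0.26 for Calb1. For Calb1 the difference was 0.69, 0.09 and 1.42 in Cy/+ kidneys, against 0.80, 1.2 and 0.99 in +/+ kidneys. For Slc12a1 it was -1.21, -1.74 and -0.65 in Cy/+ kidneys, against 1.37, 1.21 and 0.94 in +/+ kidneys. The genotypes overlapped for Calb1 and lay apart for Slc12a1. The third Cy/+ array, the highest for Egf, was also the highest of its group for 11 of the 13 markers. The first Cy/+ array was the lowest for 12 of them. Tfcp2l1 and Bsnd were highest on the second Cy/+ array and lowest on the first, as were all 10 tested collecting duct markers. The summed signal of the list ranged from 29300 to 50830 on Cy/+ arrays and from 39310 to 41490 on +/+ arrays. This sum includes Pvalb, a listed marker too dim to test.

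**Figure D3:**
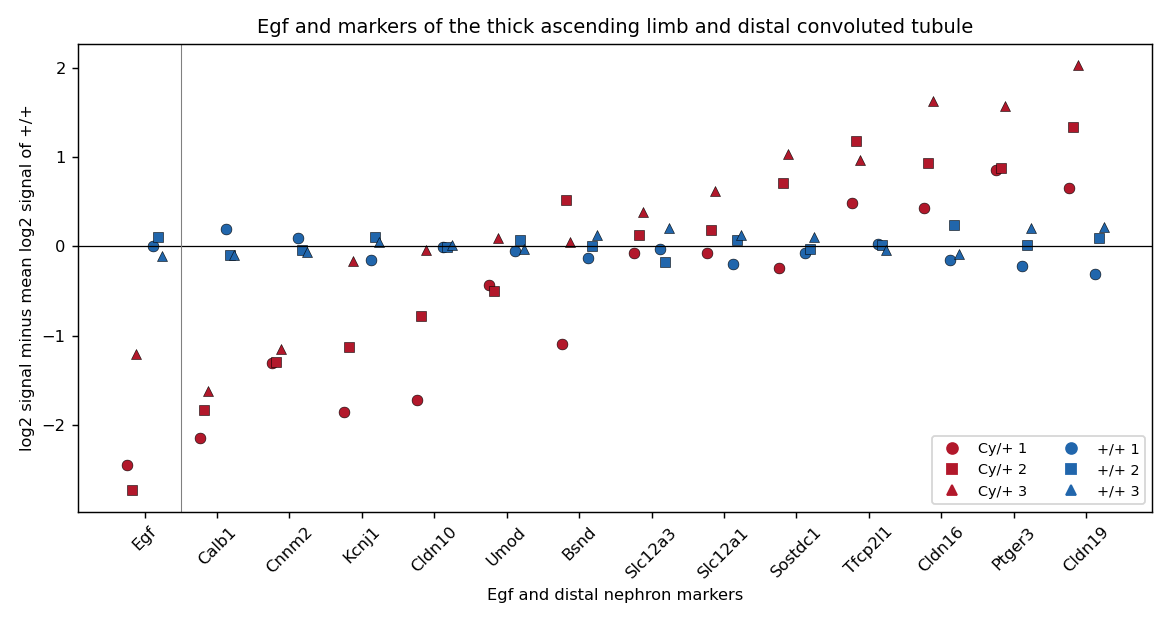
Log2 signal of Egf and of 13 distal nephron markers on each array, minus the mean log2 signal of the +/+ arrays, with Cy/+ in red left of +/+ in blue. Egf lies below 0 on all Cy/+ arrays, as do Calb1, Cnnm2, Kcnj1 and Cldn10, whereas Umod, Slc12a1 and Slc12a3 lie on both sides of 0.

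The genes whose pattern over the 6 arrays was nearest to that of Egf were found by Euclidean distance between log2 signals centred on each gene's mean. They were Anpep (distance 0.328), which encodes aminopeptidase N of the brush border, Slc7a13 (0.347), an amino acid transporter gene of the proximal tubule, Acss2 (0.361), which encodes an acetyl-CoA synthetase, Gclc (0.42), which encodes the catalytic subunit of glutamate-cysteine ligase, and Cryz (0.443), a quinone reductase gene. Their log2 fold changes ranged from -2.34 (Slc7a13) to -1.97 (Acss2). The choice by this distance itself favors genes with a fold change like that of Egf. The nearest distal marker, Calb1, was at a distance of 1.03, with 1.63% of tested genes closer, and Slc12a1 was at 3.02, with 52.3% closer. No distances from Egf are given for the listed proximal tubule markers. Closeness to Egf is therefore not compared between the proximal and the distal list. All 12 tested proximal tubule markers were lower in Cy/+ kidneys, beside 29.3% of all genes tested, by a median of -2.94 on the log2 scale. Their signals summed to 10920 to 32870 on Cy/+ arrays and to 116500 to 124100 on +/+ arrays. The Cy/+ arrays of Slc5a12, which is among the 12, averaged less than the testing threshold. Whether the loss of proximal tubule signal has a part in that of Egf was not tested.

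Nearest to Erbb2, the member with the largest rise, were Eif5b (0.11), a translation initiation factor gene, Lpin2 (0.15), which encodes a phosphatidate phosphatase, Heatr6 (0.151), Nvl (0.156) and Acer3 (0.163), which encodes a ceramidase. The largest log2 fold change among them was 1.31 (Lpin2), beside 1.28 for Erbb2, a likeness that the choice by distance brings about. With their probe sets averaged, Eif5b, Lpin2 and Heatr6 had 0.57, 0.82 and 0.80.

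Genes that release the ligands followed. Of 8 tested genes of ligand shedding, 4 were higher and 3 lower, beside 37.4% and 29.3% of all genes tested, and the median log2 fold change was 0.24. Adam15, which encodes a membrane metalloprotease, had signals of 888.0, 1014 and 923.2 in Cy/+ kidneys, against 264.7, 330.2 and 307.5 in +/+ kidneys (log2 fold change 1.65, SE 0.11, limma adjusted p = 4.01e-05). Rhbdf2 and Rhbdf1, the iRhom genes whose products bring ADAM17 to the cell surface in mice, had log2 fold changes of 1.18 and 0.60. Timp3, the gene of an inhibitor of ADAM17, had a log2 fold change of -0.84 by its brightest probe set, between -3.41 and -0.60 by its other tested probe sets and -1.80 by their mean, all passing.

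Adam10, whose product sheds EGF and betacellulin in mouse cells, had signals of 174.7, 245.4 and 242.7 in Cy/+ kidneys, against 486.2, 421.1 and 430.8 in +/+ kidneys (log2 fold change -1.03, limma adjusted p = 0.000848). Adam9 was lower too (log2 fold change -0.96), and its Cy/+ arrays averaged less than the testing threshold. Adam17, the main sheddase of TGF-alpha, HB-EGF and amphiregulin, named here after its values were seen, had signals of 1177, 1033 and 830.9 in Cy/+ kidneys, against 808.7, 792.7 and 748.3 in +/+ kidneys. Its log2 fold change of 0.36 (limma adjusted p = 0.0452) did not pass with arrays centred on the median (0.29, adjusted p = 0.09) or without any 1 of the +/+ arrays (adjusted p from 0.0907 to 0.128), nor without the first or second Cy/+ array (0.0801 and 0.0975).

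Of 5 further EGF-type ligands, 3 had a probe set with their symbol alone, and of these only Nrg1 was bright enough to test. Nrg2 and Nrg4 lay below the threshold for testing, and Epgn and Nrg3 had no such probe set. Nrg1, which encodes neuregulin 1, the ligand of ErbB3 and ErbB4, had signals of 266.4, 131.0 and 191.2 in Cy/+ kidneys, against 335.9, 367.3 and 356.1 in +/+ kidneys. The genotypes did not overlap (log2 fold change -0.91, SE 0.24, limma adjusted p = 0.0119). Another tested probe set of Nrg1 went the other way, with signals of 187.8, 178.9 and 200.8 in Cy/+ kidneys, against 117.7, 126.1 and 156.4 in +/+ kidneys (log2 fold change 0.51, limma adjusted p = 0.0097). No direction is therefore given for Nrg1 as a gene.

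Between receptor and ERK, 6 of 14 tested genes of adaptors and the Ras-MAPK cascade were higher and 1 was lower, beside 37.4% and 29.3% of all genes tested, and the median log2 fold change was 0.24. The higher genes of smallest adjusted p were Shc1, an adaptor gene (1.12), Rasa1 (1.34) and Nras (1.13). Rasa1 encodes a protein that switches Ras off. Dimmer probe sets of Rasa1 and Nras did not pass (log2 fold changes 0.10 and -0.21), and the means of their probe sets gave 0.72 and 0.46. Shc1 had signals of 1722, 1478 and 1360 in Cy/+ kidneys, against 713.3, 636.8 and 738.2 in +/+ kidneys. The lower gene was Araf, which encodes a RAF kinase (-0.73). With arrays centred on the median 4 genes of this list were higher.

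Of 13 tested inhibitors of the receptor and of the cascade, 5 were higher and 4 lower, beside 37.4% and 29.3% of all genes tested, and the median log2 fold change was 0.21. Genes of the CBL ubiquitin ligases, which send active EGF receptor to degradation, rose. Cblb had signals of 1263, 1439 and 1188 in Cy/+ kidneys, against 409.9, 403.0 and 451.9 in +/+ kidneys (log2 fold change 1.62, limma adjusted p = 3.36e-05), and Cblc had a log2 fold change of 1.79. Spry2, which encodes a Sprouty inhibitor of receptor signaling, had one of 0.73.

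Errfi1, whose product MIG6 binds and blocks the EGF receptor kinase, fell. It had signals of 2109, 1184 and 1512 in Cy/+ kidneys, against 5497, 4264 and 4669 in +/+ kidneys (log2 fold change -1.62, SE 0.21, limma adjusted p = 0.000454). Dusp5, the gene of a nuclear ERK phosphatase, and Rasa2, that of another Ras inhibitor, had log2 fold changes of -0.58 and -1.01.

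Among genes whose transcription responds to ERK, 7 of 11 tested were higher and 2 lower, beside 37.4% and 29.3% of all genes tested, and the median log2 fold change was 1.24. Myc, the gene of a growth-promoting transcription factor, had signals of 1856, 888.8 and 1008 in Cy/+ kidneys, against 203.4, 211.4 and 214.0 in +/+ kidneys (log2 fold change 2.50, SE 0.26, limma adjusted p = 0.000178). Ier3 and Ier2, both immediate early genes, had log2 fold changes of 1.67 and 1.24. The lower ones were the ETS factor genes Etv1 (-0.45) and Etv5 (-0.37). The other tested probe sets of Etv1 had log2 fold changes from -1.81 to -0.71, the mean of its probe sets gave -1.13, and Etv5 did not pass without +/+ replicate 2 (adjusted p = 0.0506). Egr2 was among the higher genes with its +/+ arrays below the testing threshold, and a filter at the 60th percentile left 5 higher. Many other signals also induce these genes.

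Markers of other cell types also differed, and their counts stand beside the same 37.4% higher and 29.3% lower of all genes tested. Of 9 tested leukocyte markers 8 were higher, with a summed signal of 5229 to 9741 on Cy/+ and 2794 to 3143 on +/+ arrays (Cd3e, a T cell marker, lay below the testing threshold in +/+), and of 5 fibroblast markers 4 were higher, at 12580 to 26490 against 4829 to 5682. These sums include listed markers too dim to test, Cd79b for leukocytes and Postn and Lum for fibroblasts. Dcn, the fibroblast marker that did not pass, gave 9185 of the highest fibroblast sum. All 9 markers of injured tubules were higher, at 59780 to 64490 against 7366 to 9268. Of 7 endothelial markers 4 were lower and 3 did not pass, at 3836 to 5212 on Cy/+ and 7434 to 8117 on +/+ arrays. Of 10 collecting duct markers 1 was higher and 1 lower (10030 to 26850 on Cy/+ and 13400 to 14740 on +/+ arrays), and of 5 podocyte markers 1 was higher and 4 were lower (2679 to 4071 on Cy/+ and 3436 to 3840 on +/+ arrays). The higher podocyte marker was Synpo by its brightest probe set (log2 fold change 0.56). Its other tested probe sets were lower (-0.81 and -1.22, limma adjusted p = 0.00118 and 0.00129). The brightest probe set of Synpo gave 2863 of the highest podocyte sum on Cy/+ arrays and 1672 of the highest on +/+ arrays. No signal in the table was at 0. The part of these cells in the changes of the EGF family and its pathway was not tested.

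**Figure D4:**
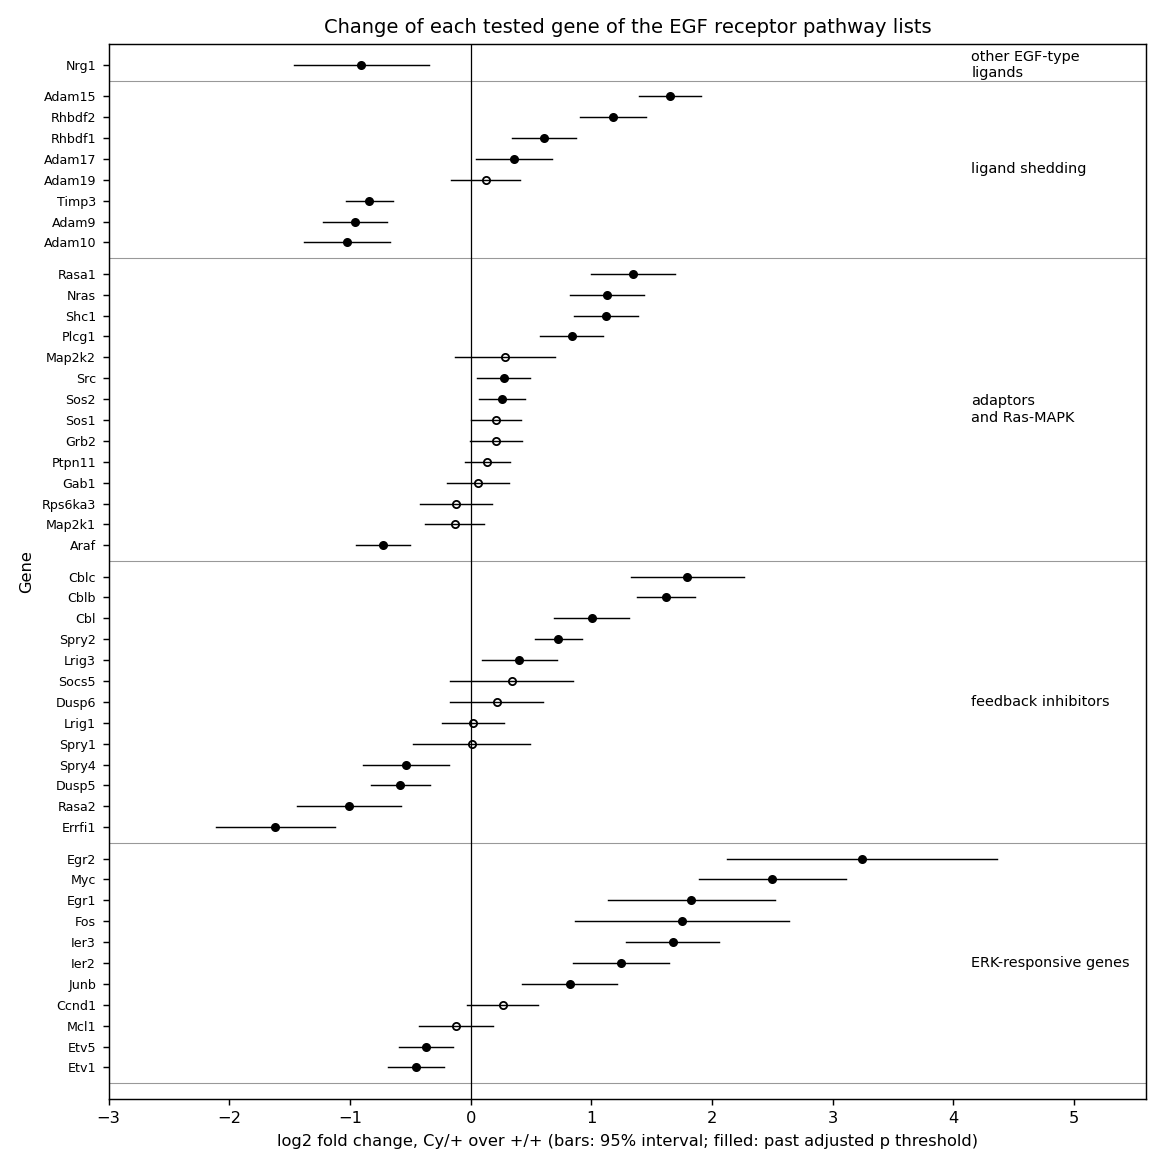
Log2 fold change, Cy/+ over +/+, of each tested gene in 5 lists of the EGF receptor pathway, with 95% intervals from limma and filled points for genes past the adjusted p threshold. Shedding genes and feedback inhibitors lie on both sides of 0, Errfi1 at -1.62 and Cblc at 1.79 among them, and ERK-responsive genes reach 3.24 (Egr2, whose +/+ arrays averaged less than the testing threshold).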

How the data were processed

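Kidney total RNA of 3 Cy/+ and 3 +/+ samples was hybridized by the authors, 1 sample per array, to rat genome oligonucleotide arrays, and images were analysed with GCOS. Processing notes of the submitters list MAS5. Each probe set has 1 deposited linear intensity per array, from 10.65 to 32240, without a detection call, and the exact scaling between arrays is not given in the sources used here. Precision is limited by the few arrays.

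Intensities were log2-transformed, no pseudocount being added. The 57 control probe sets were left out, and the 18625 probe sets at or above the 40th percentile of mean log2 signal (6.28) were tested with limma 3.58.1 in R 4.3.3 (lmFit, eBayes with an intensity trend, no covariate), with Benjamini-Hochberg adjustment over all of them and a threshold of 0.05. Symbols came from the platform annotation, updated through Entrez IDs with a table of assembly GRCr8 (20764 probe sets matched). Of all probe sets, 20832 had a single symbol, 436 had more and 9831 lacked one. The brightest probe set represented a gene.

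The members and lists were chosen with earlier results of these data known. Named from each list were up to 3 genes each way past the threshold with the smallest adjusted p, and 5 genes nearest in pattern to Egf and 5 to the member of largest rise. Umod, Slc12a1, Slc12a3, Cldn10, Sostdc1, Bsnd, Adam17, Egr2, Cd3e, Slc5a12, Synpo, Dcn, Pvalb, Cd79b, Postn and Lum were named after their values were seen. The code of the fit was run on simulated data with few changed probe sets and the same noise in both genotypes. That setting differs from these arrays, so it lends no support to the results. Alternatives were other scalings, a pseudocount, a floor, other filters, other limma settings, the methods' t-test, a replicate block, other choices of probe set and leaving out each array.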

Additional observations from a re-analysis of the deposited data

How the results depend on the processing

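The alternatives comprised 18 settings. The log2 fold changes of Egf (-2.60 to -1.79, highest adjusted p 0.0223), Erbb2 (1.15 to 1.49, 0.0121), Erbb3 (-1.54 to -1.34, 0.00204) and Hbegf (0.54 to 0.84, 0.0497) kept their direction and passed in every setting in which they were tested. A filter at the 60th percentile removed Erbb3, Hbegf, Btc and Tgfa and left 1 lower member (Egf). By the methods' t-test 4 members passed the threshold without adjustment, and the same number after Benjamini-Hochberg, where Btc (-0.47, adjusted p = 0.0899), Egfr (0.72, adjusted p = 0.0752) and the distal nephron gene Cldn19 (1.34, adjusted p = 0.0557) did not, leaving 2 higher distal markers and 0 lower further EGF-type ligands. Egfr did not pass with the mean of its probe sets (0.13). Erbb4 passed with no filter (-0.51) and moved to -0.36 with a pseudocount of 16, and Ereg moved to 0.0 with a floor of 32.

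With probe sets averaged per gene 2 adaptor and Ras-MAPK genes were lower, against 1, and 0 further ligands were lower. None was lower without probe sets of several transcripts, which removes that of Nrg1. A filter at the 60th percentile left 1 lower ERK-responsive gene, against 2. Leaving out 1 array gave log2 fold changes of -0.64 to -0.35 for Btc, of 0.50 to 0.93 for Egfr, of -0.62 to -0.41 for Erbb4 and of 0.04 to 0.13 for Ereg. It gave 1 to 2 lower adaptor and Ras-MAPK genes (2 without Cy/+ replicate 1), 1 to 3 lower ERK-responsive genes (1 without +/+ replicate 2), 2 to 5 lower distal markers (5 without Cy/+ replicate 3) and 3 to 5 higher ones, and 2 to 3 members in each direction. Kcnj1 did not pass in 8 settings.

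Deviations from the genotype means correlated at 0.147, -0.11 and -0.151 between arrays of the same replicate number. Between arrays of different numbers they correlated at -0.116 to 0.235. With 3 arrays per genotype, this cannot show whether the numbers pair the samples. With the replicate block 6293 probe sets were higher and 5340 lower, against 6661 and 5830, and the count of members was 3 higher and 3 lower, as without it. Areg, Ereg and Erbb4 lay below the filter and have no test under it.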
